A study of Mus musculus with 10 samples.

Results

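Conventional type 1 dendritic cells (cDC1) are rare immune cells of tumors that take up material from dying cells and present it to CD8+ T cells. They depend on the growth factor receptor Flt3 and on the transcription factors Irf8 and Batf3. They carry Clec9a, a receptor for the actin exposed by dead cells, and Xcr1, the receptor for a chemokine made by T and NK cells. Like all conventional dendritic cells they display peptides on MHC class II, which is built from H2-Aa, H2-Ab1 and H2-Eb1 and chaperoned by the invariant chain, Cd74.

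Barcodes meant to hold such cells were chosen by UMI counts, where a UMI is 1 captured RNA molecule. A barcode needed at least 2 UMIs summed over Flt3, Xcr1, Clec9a, Htr7, Zbtb46, Cyp7b1 and Adam23, and at least 1 of these had to come from Flt3, Xcr1, Clec9a or Htr7. That sum also had to exceed the UMIs of the macrophage genes C1qa, C1qb, C1qc and Adgre1 and those of the mature dendritic cell genes Ccr7, Ccl22 and Il4i1. Fewer than 3 UMIs of the tumor genes Cdh13, Pvt1, Esx1, Fmnl2 and Aebp1 were allowed. The rule kept 106 of 65298 barcodes (0.162%), 43 from WT and 63 from KO tumors, with 90183 UMIs in all. The first step left 218 barcodes, of which 4 were lost to macrophage genes, 7 to mature dendritic genes, 70 to tumor genes and 31 for lack of any of the 4 defining genes.

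The data were droplet single-cell RNA profiles of E0771 tumors, grown from a mouse mammary carcinoma line injected into a mammary fat pad of female C57BL/6 mice aged 16 weeks, and taken after 21 days. KO mice carried a VE-Cadherin-Cre (Cdh5 promoter) and floxed Ago1, so that Argonaute 1, a protein of the microRNA silencing complex, was deleted in endothelial cells, and the WT mice were their littermates. There were 5 WT and 5 KO libraries, 1 of each in batch 1 and 4 of each in batch 2. The KO 2+3 and KO 5+6 libraries pooled 2 tumors each, and every other library held 1 tumor. Libraries held 8323896 to 10591577 UMIs. No sequence of a gated barcode occurred in more than 1 library, and 532 of the 64765 distinct kept barcode sequences did.

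The batches stood apart. The 19 gated barcodes of batch 1 held 51112 UMIs, and the 87 of batch 2 held 39071. Median depth per gated barcode was 1367 UMIs in the WT and 2470 in the KO library of batch 1, against 324 to 491 in the 8 libraries of batch 2. Actb, which encodes cytoplasmic actin, took 5.19% and 3.66% of gated UMIs in the WT and KO libraries of batch 1 and 14.2% to 29.8% in batch 2. Actb was therefore left out of all levels, which are given as CPM, the UMIs of a gene or gene group scaled to a total of 1e6 UMIs per class in a library or batch.

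The label was not borne out by the defining genes. Only 12 of the 106 barcodes (11.3%) held a UMI of Xcr1 or Clec9a, 3 in batch 1 and 9 in batch 2. Flt3 was present in 18 barcodes. Htr7, which encodes a serotonin receptor, was present in 94, and 77 barcodes entered with Htr7 as their only defining gene. They are therefore called Flt3/Htr7-gated barcodes here, by the genes that chose them.

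**Figure D1:**
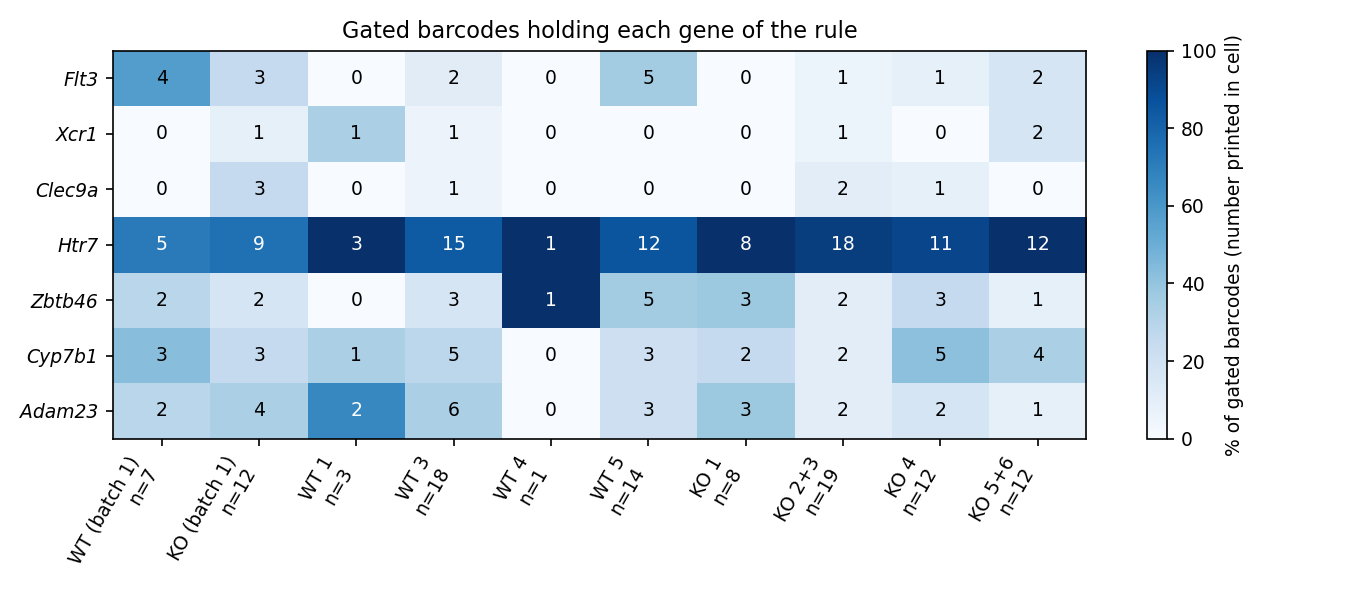
Number of gated barcodes with at least 1 UMI of each of the 7 genes of the rule (rows) in each library (columns, n gated barcodes). Color gives the number as a percent of the library's gated barcodes. Htr7 fills its row, while the Xcr1 and Clec9a rows hold at most 3 barcodes in any library.

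The genes of the rule chose the barcodes, so their values only describe them. Htr7 lies on mm10 chromosome 19 (35958734 to 36057507, minus strand). Its gated UMIs in batch 1 were 13 in the WT and 19 in the KO library. In batch 2 they were 7, 32, 1 and 39 in WT 1, 3, 4 and 5, and 19, 52, 23 and 20 in KO 1, 2+3, 4 and 5+6. The gate held 225 of the 598 Htr7 UMIs of all kept barcodes (37.6%), and 205 were in tumor-gated barcodes, which are far more numerous. In batch 2 both held 193. Among other cells of batch 1, Htr7 was found in 3.13% of 447 macrophage-gated barcodes, 0.458% of 1091 tumor-gated barcodes and 0 of 93 T-gated barcodes, which allows a share of up to 3.23% with a UMI and sets no limit on the cells that express it. In batch 2 it was found in 0.990% of 101 macrophage-gated and 0.304% of 51698 tumor-gated barcodes. Mature dendritic barcodes, the class most like the gate, held Htr7 in 18.2% of 22 in batch 1 and in 1 of 5 in batch 2, and they held Flt3 in 31.8% in batch 1, against 36.8% of gated barcodes. The median depth of all kept barcodes was 3862 to 4049 UMIs in batch 1 and 595 to 1142 in batch 2.

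Flt3 (chromosome 5, 147330741 to 147400489) gave 22 gated UMIs, of which 6 were in the WT and 3 in the KO library of batch 1. WT 1, WT 4 and KO 1 had none. Clec9a (chromosome 6, 129408862 to 129424763) gave 10 gated UMIs. Of these, 6 were in the batch 1 KO library, 2 in KO 2+3, 1 in KO 4 and 1 in WT 3. Xcr1 (chromosome 9, 123852315 to 123862029) gave 8 UMIs, with 3 in the batch 1 KO library, 2 in KO 5+6 and 1 each in WT 1, WT 3 and KO 2+3. The WT library of batch 1 therefore held neither Clec9a nor Xcr1 in its gate.

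Cyp7b1, an enzyme that hydroxylates oxysterols, gave 115 gated UMIs of 376 in all kept barcodes, with 144 in tumor-gated barcodes, and Adam23, a membrane protein of the ADAM family, gave 49 of 213. Zbtb46, a transcription factor of the conventional dendritic lineage, gave 25 of 470, and 363 of the 470 were in tumor-gated barcodes. In batch 1 the 19 barcodes held 1 to 5 of the 7 genes, with 8 barcodes holding only 1. In batch 2, 31 of 87 barcodes met the sum with 1 gene alone, and 41 held 2 genes.

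Further cDC1 genes, which the rule did not use, were sparse. Of 20 measured, 11 had a UMI in batch 1 and 13 in batch 2, for 71 and 85 UMIs in all. Irf8 had 19 UMIs in batch 1, 17 of them in the KO library, and 5 in batch 2. Batf3 had 4 UMIs in batch 1, all in the KO library, and was at 0 in batch 2. Wdfy4, needed for cross-presentation, had 7 and 13 UMIs, and Id2, a regulator of dendritic lineage choice, had 7 and 17. Itgae, Tlr3, Cd8a, Tlr11, Tlr12, Snx22, Gcsam, Cxcr3 and Cd36 were at 0 in batch 1. Cd8a, Tlr11, Tlr12, Snx22, Gcsam and Cxcr3 were at 0 in batch 2 as well. The other immune barcodes, 802 in batch 1 and 761 in batch 2, held at least 3 UMIs of Ptprc, Laptm5, Coro1a, Cd53, Cd52, Srgn and Tyrobp and did not meet the rule, and they include macrophages and T cells. The summed level of the list was 1448 CPM in batch 1 against 1170 CPM in these other immune barcodes, and 2829 against 1683 CPM in batch 2. Within batch 1 it was 440 CPM in the WT and 1836 CPM in the KO library, so the WT library lay below the other immune barcodes. In batch 2 macrophage-gated barcodes stood at 2879 CPM, no lower than the gate.

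In batch 1 the depth allowed single barcodes to be read. Some, chosen after their values were seen, held markers of different dendritic cell types. Most of these markers had few UMIs, and doublets were not removed. One KO barcode of 7487 UMIs held 3 Xcr1, 1 Clec9a, 8 Irf8, 3 Batf3, 1 Wdfy4 and 2 Naaa UMIs together with 323 UMIs of Cst3, which encodes the protease inhibitor cystatin C. It was the only one of the 106 with Xcr1, Clec9a and Batf3 together. A KO barcode of 5306 UMIs held 1 Clec9a, 2 Irf8 and 2 Wdfy4 UMIs, with 123 of Cst3. Beside them it held 3 of Cd209a and 6 of Mgl2, lectin genes of type 2 conventional dendritic cells, and no Clec10a. A KO barcode of 1426 UMIs held 4 Clec9a and 6 Irf8 UMIs beside 2 Siglech, 3 Ccr9 and 4 Cox6a2 UMIs, genes of plasmacytoid dendritic cells. A WT barcode of 4150 UMIs held 3 Cd209a, 3 Clec10a and 7 Klrd1 UMIs and no Irf8.

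**Figure D2:**
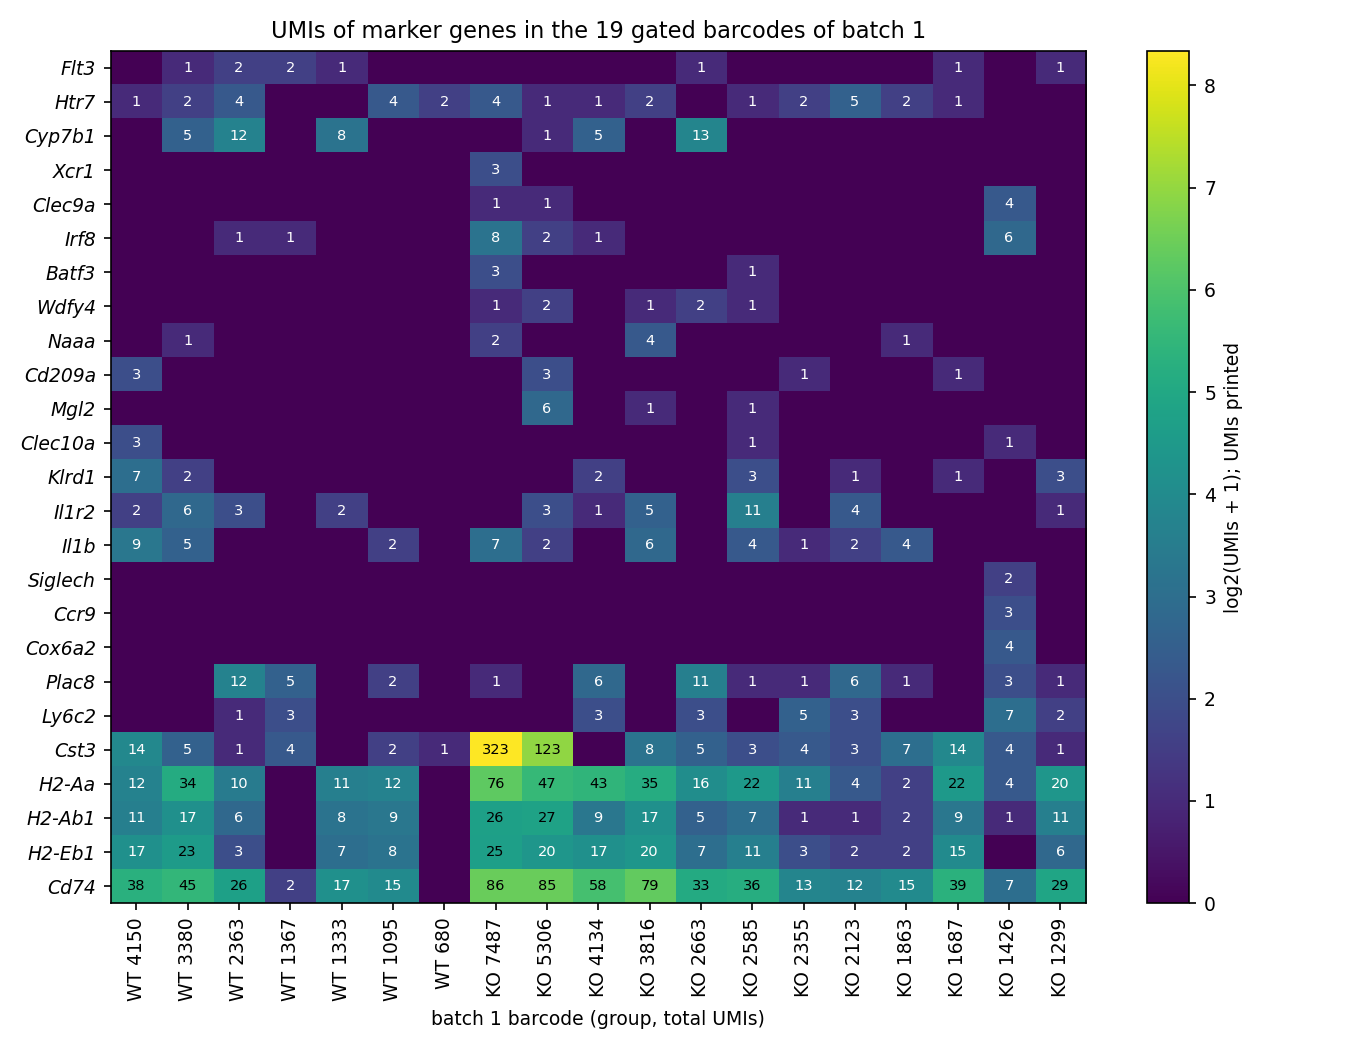
UMIs of marker genes (rows) in the 19 gated barcodes of batch 1 (columns, labelled by group and total UMIs), with color on a log2(UMIs + 1) scale and the UMIs printed. The KO barcode of 7487 UMIs holds 3 Xcr1 UMIs, the KO barcode of 1426 UMIs alone holds Siglech, Ccr9 and Cox6a2, and Cd74 is present in 18 of the 19.

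MHC class II, also outside the rule, was present in most of these barcodes. At least 1 UMI of H2-Aa, H2-Ab1, H2-Eb1 or Cd74 was present in 80 of 106 barcodes, 18 of 19 in batch 1 and 62 of 87 (71.3%) in batch 2. The 4 genes together stood at 24297 CPM in the WT and 29324 CPM in the KO library of batch 1. In batch 2 the level was 3851, 3696, 3125 and 5471 CPM in WT 1, 3, 4 and 5. It was 8427, 5915, 3503 and 5906 CPM in KO 1, 2+3, 4 and 5+6. The 3125 CPM of WT 4 was a single UMI in a single barcode, and the 3851 CPM of WT 1 was 3 UMIs.

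Mature dendritic barcodes also held high MHC class II, at 18481 CPM (13 barcodes) and 21937 CPM (9 barcodes) in the WT and KO libraries of batch 1. In batch 2 they were 5 barcodes in 4 libraries, at 5970 CPM in WT 3, above the gated level there, and at 0, 3205 and 4367 CPM in KO 1, 2+3 and 5+6. The gated level exceeded that of macrophage-gated barcodes in all 10 libraries. Macrophage-gated barcodes stood at 7203 and 7906 CPM in the WT and KO libraries of batch 1 and at 0 to 3983 CPM in batch 2, where WT 1 (9 macrophage barcodes) and WT 4 (3 barcodes) had 0 UMIs. The narrowest gap was in KO 2+3, at 5915 against 3983 CPM. Tumor-gated barcodes stood at 210 and 343 CPM in batch 1 and 13.4 to 58.1 CPM in batch 2. Barcodes of at most 50 UMIs, which hold mostly free RNA, stood at 493 CPM in batch 1 and 242 CPM in batch 2. These comparisons between gates are descriptions, and no test was made.

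**Figure D3:**
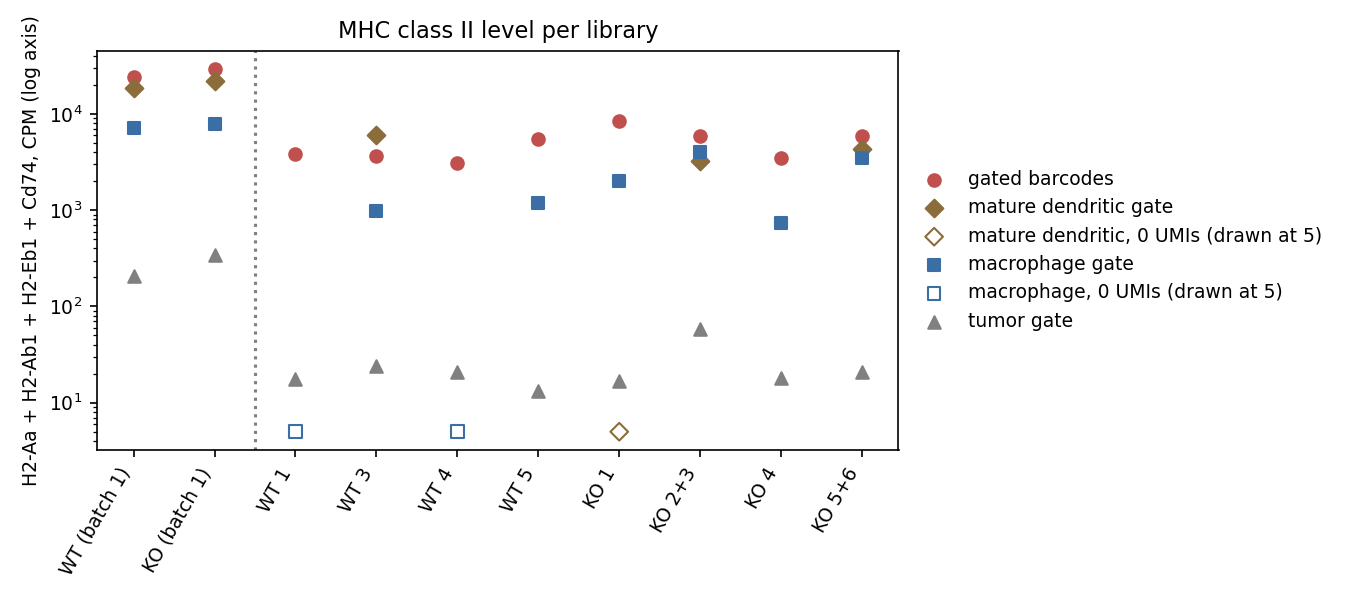
Summed level of H2-Aa, H2-Ab1, H2-Eb1 and Cd74 (CPM, log axis) in gated, mature dendritic, macrophage-gated and tumor-gated barcodes of each library, with batch 1 left of the dotted line. Gated barcodes lie above macrophage-gated barcodes in all 10 libraries, mature dendritic barcodes lie near the gated ones in batch 1 and above them in WT 3, and open symbols mark a class with barcodes but 0 UMIs.

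Gated barcodes stayed above macrophage-gated barcodes after each barcode was thinned to 300 UMIs, an alternative chosen after seeing the data. In batch 1, 94.7% of gated barcodes then held MHC class II, against 72.7% of mature dendritic, 57.0% of macrophage-gated, 5.38% of T-gated and 4.22% of tumor-gated barcodes. In batch 2 the shares were 62.5% of the 80 gated barcodes that were deep enough, 1 of 5 mature dendritic, 27.3% of macrophage-gated, 3.70% of T-gated and 0.654% of tumor-gated barcodes. Without thinning, the gated shares were 18 of 19 and 71.3%. At 500 UMIs the batch 2 shares were 65.4% of the 26 gated barcodes deep enough, 52.4% of 21 macrophage-gated and 2 of 3 mature dendritic barcodes.

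At the edge of the rule in batch 2, MHC class II was present in 44.7% of the 150 barcodes with a sum of 1, just outside. It was present in 60% of the 35 with a sum of 2, just inside, and in 78.8% of the 52 with 3 or more. In batch 1 it was present in 9 of 9 just outside, 6 of 7 just inside and 12 of 12 further in.

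Of the 12 measured genes of the MHC class II pathway, all 12 had a UMI in batch 1 and 11 in batch 2. Cd74 had 635 and 67 UMIs, H2-Aa 381 and 31, H2-Eb1 186 and 38, and H2-Ab1 167 and 22, in batch 1 and batch 2. Ciita, the coactivator that switches these genes on, had 13 and 6 UMIs, or 265 and 200 CPM, against about 22 CPM in the other immune barcodes of either batch. Lgmn, a lysosomal protease abundant in macrophages, went the other way, at 204 and 366 CPM against 1095 and 548 CPM.

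Genes of MHC class II carry a promoter module whose Y box is bound by the factor NF-Y. The letters GATTGG, the core of that box, were searched on both strands in the 200 bases before the start of each gene in RefSeq (GRCm38.p6, the mm10 assembly). They occurred in 12.9% of 32851 promoters. H2-Aa (chr17:34287855-34287884, minus strand) held them 49 bases before its start, and H2-Eb1 (plus strand) held them once in each direction, at chr17:34305795-34305824 and chr17:34305820-34305849. Each match is shown 5′ to 3′ along the gene with 12 bases on either side and the letters in capitals, because the results turn on these genes. The RefSeq table used here holds no entry for H2-Ab1, so its promoter was not searched. Of the rule's genes, Htr7, Flt3 and Clec9a had no match in this window and Xcr1 had 1.
H2-Aa: agagaattttctGATTGGttctggcgagtt
H2-Eb1, first match: tcctttgatgctGATTGGctcccagcactg
H2-Eb1, second match: cactggccttacCCAATCcagtggcaaagc

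All 11 measured genes common to both types of conventional dendritic cell had a UMI in batch 1, at 12546 CPM in sum against 3173 CPM in other immune barcodes. The sum was 4258 CPM in the WT and 15735 CPM in the KO library. Cst3 made up most of that, with 522 UMIs, of which 495 were in the KO library and 27 in the WT library. The barcodes of 7487 and 5306 UMIs held 323 and 123 of them. In batch 2 Cst3 had 15 UMIs. Bcl11a, a transcription factor of early dendritic and B cell development, had 15 and 7 UMIs, and its 306 CPM in batch 1 compared with 10.3 CPM in other immune barcodes. Cbfa2t3, a transcriptional corepressor, had 10 and 18 UMIs and the largest count of the list in batch 2. Itgax, which encodes CD11c, was at 0 in batch 2.

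Genes of other dendritic kinds were also present. The cDC1 list outside the rule stood at 1448 CPM in gated against 1170 CPM in other immune barcodes of batch 1, and at 2829 against 1683 CPM in batch 2. Pooled over the libraries of a batch, the ratio was wider for the cDC2 list (1652 against 1086 and 732 against 370 CPM) and for the plasmacytoid list (1306 against 751 and 2963 against 1380 CPM). For the mature dendritic list it was wider in batch 2 (5026 against 2220 CPM) but not in batch 1 (2285 against 2454 CPM). Single classes of other cells stood higher than the gate in places, at 980 CPM for the cDC2 list in macrophage-gated barcodes of batch 2 and at 3166 CPM for the mature dendritic list in T-gated barcodes of batch 1. In batch 1 the cDC2 list had 2349 CPM in the WT and 1384 CPM in the KO library, where the cDC1 list stood at 1836 CPM. In batch 2 the cDC2 list stood at 0, 168, 3125 (1 UMI) and 189 CPM in WT 1, 3, 4 and 5. It stood at 562 to 1561 CPM in the KO libraries of batch 2. All 12 cDC2 genes had a UMI in batch 1 (81 UMIs) and 6 of 12 in batch 2 (22 UMIs), with S100a4 at 29 UMIs the highest count, Klf4 leading batch 2 with 9, and Cd209a at 8 and 1. Of 10 plasmacytoid genes, 8 had a UMI in batch 1 and 3 in batch 2. Tcf4, the transcription factor of that lineage, which other cells also express, had 67 of the 89 UMIs of batch 2, where Siglech, Bst2, Ccr9, Cox6a2 and Klk1 were at 0. Of 15 genes of mature dendritic cells, 10 and 11 had a UMI, for 112 and 151 UMIs. Rel, an NF-kB subunit, had 45 and 70 of these. Fscn1, an actin-bundling protein of mature dendritic cells, had 44 UMIs in batch 2 (16 in WT 5, 15 in KO 2+3, 8 in KO 5+6) and 1 in batch 1, while tumor-gated barcodes stood at 760 CPM in batch 2.

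Markers of cells outside the dendritic lineages varied by list. Of 14 macrophage genes, 10 had a UMI in batch 1 (1224 CPM against 16509 in macrophage-gated barcodes) and 4 in batch 2 (333 against 4165 CPM). In batch 1 the level was 514 CPM in the WT and 1497 CPM in the KO library. Lyz2 led with 22 UMIs in batch 1 and Mrc1 with 4 in batch 2, and Ms4a7, Trem2, Fcrls and Mertk were at 0 in both. Of 10 monocyte genes, 7 and 5 had a UMI, led by Plac8 with 50 and 14. They stood at 2632 and 965 CPM, as high as in the other immune barcodes (2401 and 951 CPM) and above macrophage-gated barcodes (1582 and 429 CPM), and the part of monocyte RNA in the gate was not tested. Vcan, Fn1 and Chil3 were at 0 in both.

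Of 8 neutrophil genes, only Il1r2 and, in batch 1, Csf3r had a UMI, with S100a8 and S100a9 at 0. Of 8 B cell genes, 1 had a UMI in each batch, with 3 UMIs of Ighm in batch 1 and 8 of Ebf1 in batch 2. Of 12 T and NK genes, 1 had a UMI in batch 1 (1 UMI of Cd4) and 3 in batch 2 (4 UMIs, led by Trac), and Cd3d, Cd3e and Cd3g were at 0. Of 7 endothelial genes, 2 had a UMI in each batch (3 and 6 UMIs, led by Pecam1 in batch 1 and shared evenly by Pecam1 and Kdr in batch 2), and Cdh5 was at 0. No gated barcode held 2 or more T or B cell gate UMIs.

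Among 12 tumor and mesenchyme genes, 3 had a UMI in batch 1, led by Vim with 76 of 80, and 10 in batch 2, led by Col1a1 with 42 of 89. These genes were not all highest in tumor-gated barcodes. In batch 2 Col1a1 stood at 1398 CPM in the gate and 1247 CPM in other immune barcodes, against 218 CPM in tumor-gated barcodes. In batch 1 the list stood at 1632 CPM in the gate, 1381 CPM in other immune and 5921 CPM in tumor-gated barcodes. Krt8 and Krt18 were at 0 in both. The summed level in batch 2 was 2963 CPM against 6005 CPM in tumor-gated barcodes, and it reached 7559 CPM in WT 3. That library held 45 of the 89 UMIs, and the others of batch 2 stood at 0 (WT 4) to 2886 CPM (KO 2+3). Of the 106 barcodes, 45 held at least 1 UMI of the rule's tumor genes. Most of these UMIs were Fmnl2, with 6 in batch 1 and 38 in batch 2. In batch 2 Fmnl2 stood at 1265 CPM in the gate and 1103 CPM in macrophage-gated barcodes. Cdh13 and Aebp1 were at 0 in the gate in both batches. Pvt1 stood at 333 CPM in the gate against 11618 CPM in tumor-gated barcodes of batch 2. The rule allowed fewer than 3 UMIs of its tumor genes in the gate, and tumor-gated barcodes needed 3 or more. The contrast in these genes was therefore set in part by the gates. The part of tumor RNA in the levels given here was not tested.

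**Figure D4:**
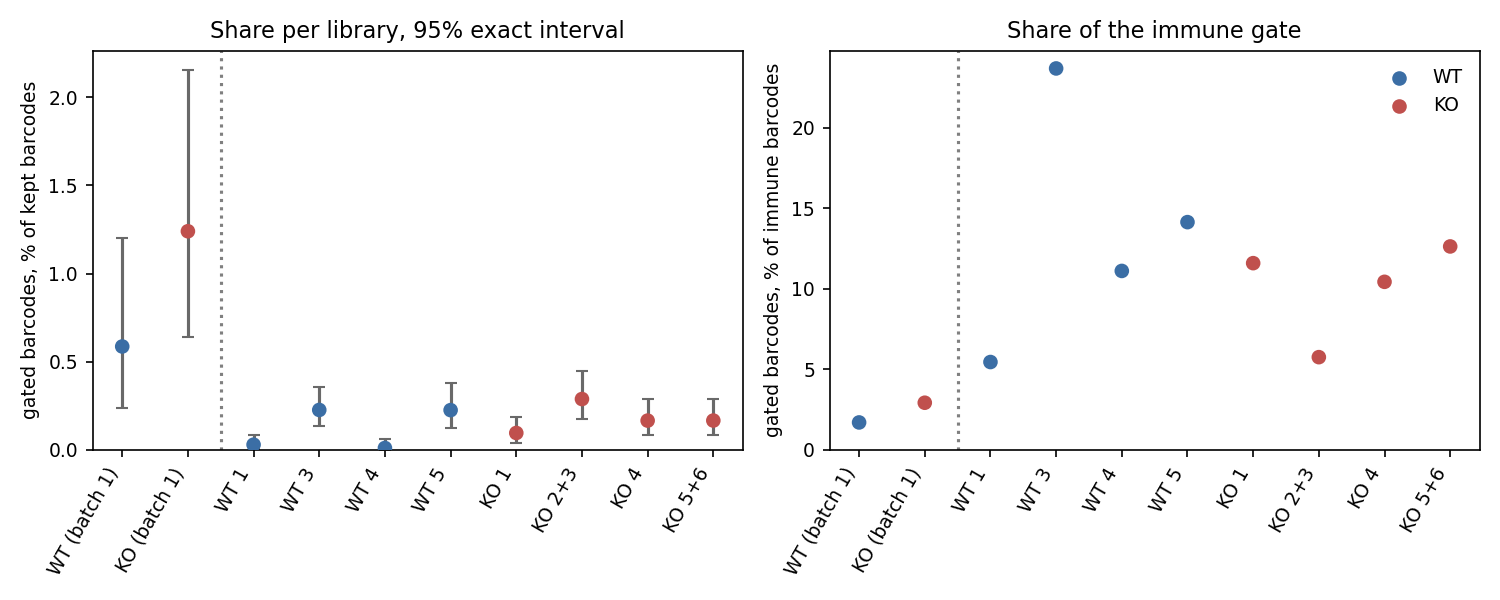
Gated barcodes as a percent of kept barcodes (left, with 95% exact binomial intervals) and of immune barcodes (right) in each library, WT in blue and KO in red, with batch 1 left of the dotted line. The batch 1 KO library stands highest on the left at 1.24%, WT 3 stands highest on the right at 23.7%, and WT and KO overlap in both.

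Whether the share of these barcodes differed between WT and KO tumors was tested over libraries. Gated barcodes were 0.586% of kept barcodes in the WT and 1.24% in the KO library of batch 1. In batch 2 they were 0.0294%, 0.226%, 0.0106% and 0.225% in WT 1, 3, 4 and 5, which rest on 3, 18, 1 and 14 barcodes. They were 0.0958%, 0.288%, 0.166% and 0.166% in KO 1, 2+3, 4 and 5+6, which rest on 8, 19, 12 and 12 barcodes. WT 1 and WT 4 were lowest, and the groups overlapped.

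The intervals for batch 1 were 0.236% to 1.20% in WT and 0.642% to 2.16% in KO, and they cover counting error only. The WT mean was 0.216% ± 0.231 (SD, n = 5) and the KO mean was 0.391% ± 0.479 (SD, n = 5). The gap of 0.176 percentage points gave p = 0.186 when labels were exchanged within batches in an exact permutation test (two-sided, smallest possible p 0.0143). Batch 2 alone gave a gap of 0.0561 percentage points (p = 0.371, exact), and batch 1 had 1 library a group. Without the batch 1 KO library the gap of the plain group means was -0.0365, but batch 1 was then in the WT group only, so that value mixes batch with genotype. A lower share cannot be told apart from less RNA per cell, since the rule needs 2 UMIs and batch 2 barcodes were shallow.

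Among immune barcodes, gated barcodes included, the share was 1.70% and 2.93% in the WT and KO libraries of batch 1. In batch 2 it ranged from 5.45% to 23.7% in WT and from 5.76% to 12.6% in KO. The means were 11.2% ± 8.48 (SD, n = 5) and 8.67% ± 4.15 (SD, n = 5), with an exact permutation p = 0.529, and batch 2 alone gave a gap of -3.49 percentage points (p = 0.457, exact). Without WT 3 the difference was 0.566. The immune gate caught few barcodes in batch 2, 9 in WT 4 and 330 in KO 2+3, and Tyrobp was at 0 in gated barcodes there.

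Of gated and mature dendritic barcodes together, the gated made up 35% and 57.1% in the WT and KO libraries of batch 1 and 88.9% to 100% in batch 2. The WT mean was 85.9% ± 28.6 (SD, n = 5), the KO mean was 85.8% ± 16.6 (SD, n = 5), and the exact permutation p was 1. Batch 2 held only 5 mature dendritic barcodes in all, against 22 in batch 1, and there KO minus WT was -5.77 percentage points (p = 0.143, exact).

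Ago1, the gene deleted in endothelial cells, had 1 UMI in gated barcodes of batch 1 and 1 in batch 2, in the batch 1 KO library and in KO 2+3. These barcodes are not the cells the Cre targets by design, and the count is too low to check the labels. Of 12 Argonaute and microRNA genes, 8 and 9 had a UMI (28 and 22 UMIs, with 881 CPM in the WT and 452 CPM in the KO library of batch 1), led by Ago2 in batch 1 with 9 and Tnrc6b in batch 2 with 6. Batch 2 libraries overlapped for this list, at 0 to 1284 CPM in WT and 250 to 1406 CPM in KO.

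Expression in KO against WT was tested on UMIs summed per library, over the libraries that held 5 or more gated barcodes, which were 3 of WT and 5 of KO. Only 49 genes had enough counts, 2 of which, Htr7 and Cyp7b1, were used by the rule and are not reported as tests. edgeR's quasi-likelihood test with Benjamini-Hochberg adjustment called 0 of them (0.0%), and 3 (6.12%) had an unadjusted p under 0.05. DESeq2 also called 0, with 3 under 0.05 unadjusted. The median log2 fold change of the 49 was 0.08. In simulated counts of this comparison, 91.9% of changes of 2 on the log2 scale were recovered and 9.58% of changes of 1. Changes of that smaller size were therefore mostly not detectable in this comparison. Over 20 draws each, false calls numbered 5 at a change of 2 and 0 at a change of 1.

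**Figure D5:**
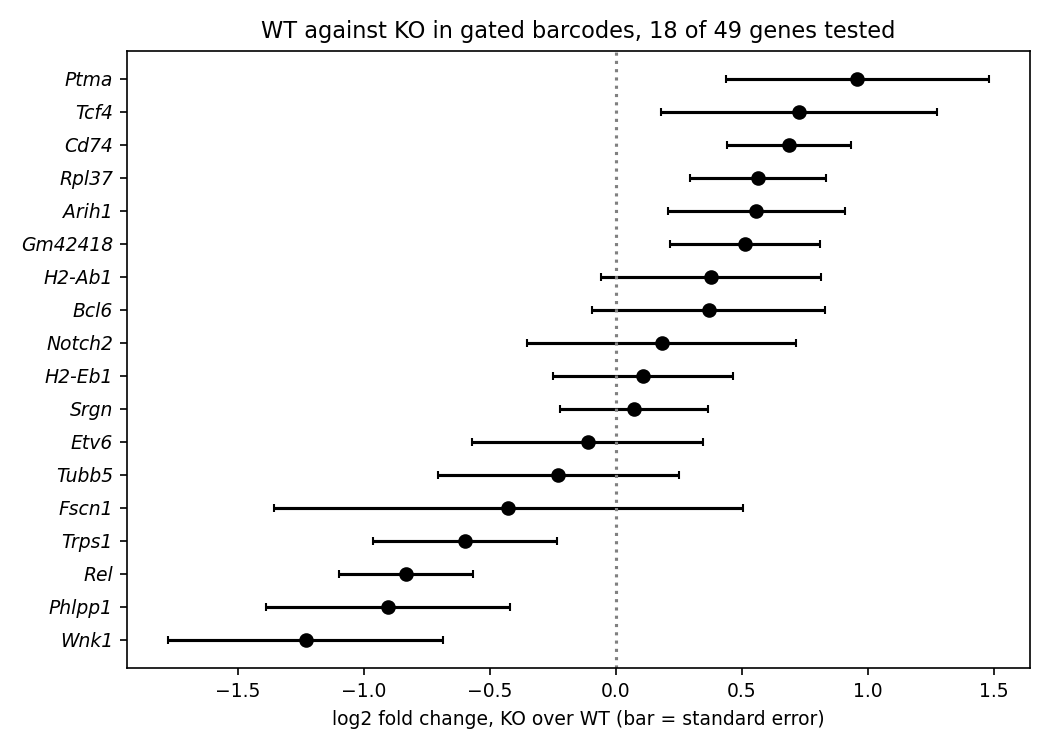
Log2 fold change of KO over WT with its standard error for 18 of the 49 genes tested, being those with the smallest p in each direction (5 above 0, 4 below 0) and 9 from the gene lists. Genes of the rule are left out. None passed the adjusted threshold in edgeR's test, with Cd74 at 0.69 and Rel at -0.83 having the smallest p-values on either side.

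Cd74 had 143 UMIs in the WT and 492 in the KO library of batch 1. In batch 2 it had 9 in WT 3 and 11 in WT 5, and 9, 18, 9 and 10 in KO 1, 2+3, 4 and 5+6. Its log2 fold change was 0.69 (SE 0.25), with an edgeR adjusted p of 0.497. It was 0.37 without the batch 1 KO library, 0.34 with the libraries of batch 2 alone (added after seeing the data) and 0.34 without the batch term. Among the other MHC class II genes tested, H2-Ab1 stood at 0.38 (SE 0.44) and H2-Eb1 at 0.11 (SE 0.36), and both were below 0 without the batch term. Without WT 5 they stood at 0.75 and 0.43. None of the 3 passed the test.

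Rel had 21 and 24 UMIs in the WT and KO libraries of batch 1. In batch 2 it had 19 in WT 3 and 18 in WT 5, and 5, 17, 6 and 5 in the KO libraries. Its log2 fold change was -0.83 (SE 0.27), also with an edgeR adjusted p of 0.497. Per gated depth, Rel stood at 3192 CPM in WT 3 and 3396 CPM in WT 5, and at 1561, 2453, 1501 and 1406 CPM in KO 1, 2+3, 4 and 5+6. Batch 1 levels were 1542 CPM in the WT and 678 CPM in the KO library. Rel was named for its small p-value in these same counts, so the levels add no further support. WT 1 and WT 4, with 3 gated barcodes and 1, had no Rel UMI and were not in the fit. Fscn1, the other mature dendritic gene tested, stood at -0.43 (SE 0.93).

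The other genes with small p-values were of mixed kinds. Above 0 were Ptma, a nuclear protein of growing cells (0.96, SE 0.52), the ribosomal protein gene Rpl37 (0.57, SE 0.27), the ubiquitin ligase gene Arih1 (0.56, SE 0.35) and Gm42418 (0.51, SE 0.30), an annotation that overlaps ribosomal RNA. Below 0 were the kinase gene Wnk1 (-1.23, SE 0.54), the phosphatase gene Phlpp1 (-0.90, SE 0.48) and the transcription factor gene Trps1 (-0.60, SE 0.36). Wnk1 had 17 and 16 UMIs in WT 3 and WT 5, and 0, 7, 2 and 7 in KO 1, 2+3, 4 and 5+6. Without WT 5 Phlpp1 stood at -0.19, Trps1 at -0.36 and Arih1 at 1.08. Without the batch 1 KO library Wnk1 stood at -1.87 and Trps1 at -1.0. Without WT 3 Arih1 stood at 0.30 and Gm42418 at 0.16, and without the batch 1 WT library Gm42418 stood at 0.80. None was called.

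Of the 18 transcription factors of dendritic development, 4 were tested and 0 called, with a median log2 fold change of 0.27 beside 0.08 over all genes tested. These were Tcf4 at 0.73 (SE 0.55), Bcl6 at 0.37 (SE 0.46), Notch2 at 0.18 (SE 0.53) and Etv6 at -0.11 (SE 0.46). Tcf4 stood at 0.15 without WT 3 and at 1.26 without WT 5, and Bcl6 at 0.093 without KO 4. The immune granule gene Srgn stood at 0.07 (SE 0.29) and the tubulin gene Tubb5 at -0.23 (SE 0.48). No member of the cDC1, cDC2, costimulation, cytokine, sensor, interferon or migration lists had enough counts.

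Leading genes, by fold over other immune barcodes in batch 1 with 20 CPM added, describe the same barcodes from outside the rule. Each needed 20 or more UMIs in gated barcodes, both batches together, with no such limit in other immune barcodes. The limit therefore favored genes high in the gate. Some batch 1 folds rest on few UMIs, such as 2 and 4 for Tmtc2 in the WT and KO libraries. Bcl11a led at 11.7-fold. Il1r2, the decoy receptor for interleukin-1, was 10.7-fold higher, with 13 and 25 UMIs in the WT and KO libraries of batch 1 and 20 in batch 2. Klrd1, which encodes CD94, was 8.53-fold higher with 9, 10 and 7 UMIs, or 15.6-fold in the WT and 4.67-fold in the KO library of batch 1. Ahr, the aryl hydrocarbon receptor, was 7.47-fold higher, and Nr4a3, a nuclear receptor induced by stimulation, was 6.11-fold higher, or 13.6-fold in the WT and 2.74-fold in the KO library. The rest of the 20, at 8.13-fold to 5.00-fold, were Ptpn4, Rtn1, 1700025G04Rik, Dapp1, Tspan13, Gcnt2, Stk38l, Uck2, Map4k4, Cbfa2t3, Map3k14, Mreg, Lyst, St8sia4 and Tmtc2. The fold of 7 of the 20 (Klrd1, Gcnt2, Stk38l, Map4k4, Nr4a3, Mreg and St8sia4) moved by over 1.5 times when either library of batch 1 was taken alone, each of them higher in the WT library, and that of Mreg was 18.7 in WT and 1.46 in KO.

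In batch 2 the leading genes, chosen after seeing the data at 15 or more UMIs, overlapped in part. Mreg, Cbfa2t3 and Stk38l were on both lists, which is 3 of 20 and 3 of 15. The limit of 15 UMIs kept out other genes of the batch 1 list. Bcl11a and Klrd1 had 7 UMIs each in batch 2 and Nr4a3 had 5. The overlap therefore does not measure how alike the batches were. H2-Eb1, H2-Ab1, H2-Aa and Cd74 were on the batch 2 list at 4.32-fold, 4.12-fold, 4.04-fold and 3.63-fold. Nr2f2 led at 9.70-fold, but 11 of its 16 UMIs were in KO 2+3. Tbc1d4 (6.59-fold), Fscn1 (6.23-fold), Tcf4 (3.89-fold), Nck2, Myo9a, Gpr171 and Ccdc88a made up the rest.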

How the data were processed

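Per the labels, tumors were profiled with the 10x single cell 3′ v3 chemistry, and the authors deposited raw counts of UMIs for 31053 genes in every barcode, empty droplets included, made with Cell Ranger 7.1.0 on mm10 according to the submitters' processing notes. Whether intronic reads were counted is not given in the sources used here. The authors' clusters were not used.

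A barcode was kept if it had between 200 and 7000 detected genes and no more than 10% of its UMIs on mitochondrial genes. Doublets were not removed. The members and the 23 gene lists were chosen with earlier results of these data known. Macrophage-gated barcodes had 2 or more UMIs of the rule's macrophage genes, T-gated barcodes 2 or more of Cd3d, Cd3e, Cd3g, Trac and Trbc2, tumor-gated barcodes 3 or more of the rule's tumor genes, and mature dendritic barcodes 2 or more of Ccr7, Ccl22 and Il4i1. Outside the tumor gate, tumor UMIs stayed under 3 and competing gates had to be lower.

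Genes were named if they were called or were among the 5 smallest p-values in either direction. Genes of the rule were named too (described, with no test), as were those with the most UMIs of a list, up to 4 a list. The 20 leading genes, also named, needed 20 or more UMIs in gated barcodes, both batches together. Single barcodes, genes listed at 0 and list members with fewer UMIs, such as Batf3, Cd209a, Ciita, Lgmn and Bcl11a, were chosen after their values were seen.

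A library was 1 sample. Shares were compared by exact permutation within batch (140 arrangements, 3 comparisons). Summed UMIs without Actb were tested with edgeR 4.0.16 (TMM, filterByExpr, batch term, threshold of 0.05) in R 4.3.3, with DESeq2 1.42.0 as an alternative. The edgeR test was tested on simulated data. Permutation used Python 3.11.15 and scipy 1.17.1.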

Additional observations from a re-analysis of the deposited data

Results flagged for a closer look

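Dixon's test over the 5 libraries of a group, made for 12 groups of values, set 8 values apart, and all 8 belonged to a batch 1 library; chance sets apart about 1 in 20. In the batch 1 KO library these were a share of kept barcodes of 1.24% (0.0958% to 0.288% in the other KO libraries), a share of gated and mature dendritic barcodes of 57.1% (88.9% to 100%), a median depth of 2470 UMIs (346 to 491) and an MHC class II level of 29324 CPM (3503 to 8427). In the batch 1 WT library they were a share of gated and mature dendritic barcodes of 35% (94.7% to 100% in the other WT libraries), a median depth of 1367 UMIs (324 to 462), an Actb share of 5.19% of UMIs (23.6% to 29.8%) and an MHC class II level of 24297 CPM (3125 to 5471). Batch and depth cannot be told apart.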

How the results depend on the processing

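No comparison of shares passed its test under any alternative run. The gap in the share of kept barcodes was -0.0239 with barcodes thinned to 500 UMIs, 0.0216 at 300 UMIs (added after seeing the data), 0.0724 with Xcr1 or Clec9a required, and ranged from -0.0365 (without the batch 1 KO library) to 0.268 (without the batch 1 WT library) with 1 library left out. Gaps with 1 library left out are of plain group means, so both ends leave batch 1 in 1 group and mix batch with genotype; batch 2 alone gave 0.0561. The gap in the immune share was 2.23 with the replicate block and -4.93 to 0.566 with 1 library left out. The gap in the share of gated and mature dendritic barcodes was 2.17 for a sum of 3 or more, 1.25 with no limit on tumor genes, 2.80 at 500 UMIs, 3.68 with the replicate block, 0.071 on the log2 scale, 9.18 without WT 1 and WT 4 (added after seeing the data) and -12.9 (without the batch 1 WT library) to 6.97 (without the batch 1 KO library) with 1 library left out, against -5.77 in batch 2 alone. With the replicate block the smallest possible p was 0.25, so it could not pass. Over 7139 genes, deviations correlated at -0.30 for WT 1 and KO 1 and at -0.40 for WT 4 and KO 4, and at 0.34 for WT 3 and KO 2+3 and 0.30 for WT 5 and KO 5+6, where a number is shared with a pool. Not every pair was above 0.1, so the libraries were taken to share only a number. For expression, a replicate block that paired the batch 1 libraries, WT 3 with KO 2+3 and WT 5 with KO 5+6 (added after seeing the data; 47 genes tested) called 0 genes in edgeR, with 4 at an unadjusted p under 0.05, and put Fscn1 at 0.42, Etv6 at 0.046 and Srgn at -0.091.

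The count of called genes was 0 to 2 with 1 library left out. Without WT 3 edgeR called Cst3 (2.48, adjusted p 0.0181), and without WT 5 Cst3 (2.78, adjusted p 0.0162) and Dpysl2 (3.36, adjusted p 0.0163); the genes tested then numbered 112 and 131 and their median log2 fold change was 0.51 and 0.55. Of the 495 Cst3 UMIs of the batch 1 KO library, 323 and 123 lay in 2 of its 12 barcodes. With no filter 9006 genes were tested, 0 were called and 222 had an unadjusted p under 0.05. Requiring Xcr1 or Clec9a left too few libraries for a fit. Without the batch term Gm42418 stood at -0.23, H2-Ab1 at -0.099 and H2-Eb1 at -0.21; with at least 10 barcodes Etv6 stood at 0.36; with no filter Srgn stood at -0.019. With 1 library left out, ranges that crossed 0 were -0.17 to 0.69 for Notch2, -1.22 to 0.89 for Fscn1, -0.46 to 0.17 for Etv6 (-0.35 without WT 3), -0.18 to 0.33 for Srgn, -0.048 to 0.43 for H2-Eb1 and -0.56 to 0.091 for Tubb5. The causes were not tested. Depth limits batch 2, where the median gated barcode held 324 to 491 UMIs.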

Other observations

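Gene groups that belong in no comparison are given as values, gated against other immune barcodes. Of 23 genes of MHC class I presentation, 22 had a UMI in batch 1 and 16 in batch 2, led by B2m with 65 and 22 UMIs, at 6875 against 8230 CPM and 3429 against 4480 CPM. Of 16 costimulation and checkpoint genes, 12 and 13 had a UMI, at 3529 against 3198 CPM and 2963 against 1939 CPM. Cd52, a surface protein of most leukocytes that also helped to define the immune barcodes, made up 86 of the 173 UMIs of batch 1. Cd80, a ligand of CD28, had 17 and 10 UMIs, and Havcr2, which encodes TIM-3, had 6 and 23. Of 18 cytokine and chemokine genes, 13 and 7 had a UMI, at 4182 against 4770 CPM and 699 against 1765 CPM, led by the chemokine genes Ccl4 with 45 UMIs in batch 1 and Cxcl16 with 9 in batch 2. The batch 1 level of these genes was 1688 CPM in the WT and 5142 CPM in the KO library. Batch 2 libraries overlapped, at 0 to 672 CPM in WT and 0 to 1443 CPM in KO. Both subunit genes of interleukin-12, Il12a and Il12b, were at 0 in both batches, and Cxcl9 and Cxcl10 were at 0 in batch 2. Of 16 sensor and uptake genes, 9 and 8 had a UMI, at 2346 against 7099 CPM and 965 against 825 CPM (1321 CPM in the WT and 2740 CPM in the KO library of batch 1), led by Fcer1g with 100 UMIs in batch 1 and the nuclease gene Dnase1l3 with 16 in batch 2. Batch 2 libraries overlapped for this list, at 0 to 3125 CPM in WT (the highest being 1 UMI in WT 4) and 250 to 2497 CPM in KO.

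Of 13 growth factor receptor genes, 13 and 8 had a UMI, at 1244 against 1212 CPM and 1631 against 818 CPM, with Ifngr2, a subunit of the interferon gamma receptor, at 16 of the 49 UMIs of batch 2. Flt3, which the rule used, gave 9 of the 61 UMIs of batch 1 and 13 of the 49 of batch 2. The rule itself therefore raised the gated level of this list, and the list does not describe the barcodes from outside the rule. Of 18 transcription factors of dendritic development, 17 had a UMI in each batch, at 5569 against 4036 CPM and 12583 against 9130 CPM. Of 20 interferon response genes, 19 and 15 had a UMI, at 2693 against 3830 CPM and 1365 against 1528 CPM (1248 CPM in the WT and 3249 CPM in the KO library of batch 1), led by Isg15 with 45 UMIs in batch 1 and Stat2 with 8 in batch 2. Batch 2 libraries overlapped for this list, at 0 to 1509 CPM in WT and 751 to 2185 CPM in KO. Of 20 cell cycle genes, 16 and 13 had a UMI, at 6344 against 3009 CPM and 8755 against 8561 CPM (8662 CPM in the WT and 5452 CPM in the KO library of batch 1). Batch 2 libraries overlapped for these genes, at 5093 to 14121 CPM in WT and 6749 to 15918 CPM in KO. H2afz, a histone variant gene, had 139 of the 311 UMIs of batch 1, and Tubb5 had 217 of the 263 of batch 2. Of 16 migration and adhesion genes, 10 and 12 had a UMI, at 1999 against 1959 CPM and 2630 against 2719 CPM, led by Cd47 with 38 and 43 UMIs. These are descriptions with no test.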
